A study of Mus musculus with 18 samples.

Results

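The genes described here were *Fstl3*, which encodes the secreted activin antagonist follistatin-like 3, and 9 genes of activin and TGF-β signaling, 10 of the 36737 genes counted. They were the entries whose symbol was *Fstl3*, *Fst*, *Fstl1*, *Inhba*, *Inhbb*, *Tgfb1*, *Tgfb2*, *Tgfb3*, *Acvr2a* or *Tgfbr2*, and all 10 were found and passed the filter on low counts. *Fstl3* was chosen by its lower level with fracture plus PDX than in sham, so its values in these libraries are given as a description, without a p-value between groups. Bulk RNA-seq was made from L3–L5 dorsal root ganglia (DRG) of CD1 mice, an outbred strain, in 3 groups of 6 mice, each of 3 males and 3 females, with 1 library taken to stand for each mouse. Sham mice had sham surgery. Fracture mice had a pinned fracture of the left tibia and vehicle, and fracture plus PDX mice (also called PDX mice) had the same fracture and protectin DX (PDX), a lipid mediator of the resolution of inflammation. All were adult, of both sexes and without a transgene or deletion. Ganglia of both fracture groups were taken on day 3, while the sources used here give neither a day for sham, nor a PDX dose, nor the side of the ganglia for these mice. Nothing in the labels names a sequencing batch or a pooling of animals, and p-values measure the spread between these mice.

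Activins are dimers of inhibin beta subunits and, with the TGF-βs, belong to a family of secreted growth factors. A ligand binds a type II receptor, such as the products of *Acvr2a* or *Tgfbr2*, which activates a type I receptor, and SMAD2 and SMAD3 are then phosphorylated and enter the nucleus with SMAD4. Follistatin and follistatin-like 3 bind activins outside the cell and keep them from their receptors. In sensory ganglia, activin A is known to raise neuropeptide expression and pain sensitivity, and FSTL1 is a protein released by sensory neurons that dampens their synaptic transmission.

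The 10 genes lie on 8 chromosomes of GRCm38. *Fstl3* (ENSMUSG00000020325) is on chromosome 10 from 79777272 to 79782630 on the plus strand. The sequence upstream of its start is shown because *Fstl3* is itself known to be induced by activin and TGF-β through SMADs. The 250 bases before the RefSeq start (GRCm38.p6, plus strand, chr10:79777024-79777273) are printed 5′ to 3′, with the SMAD box letters GTCTG, the other strand of CAGAC, in capitals.
Fstl3 upstream: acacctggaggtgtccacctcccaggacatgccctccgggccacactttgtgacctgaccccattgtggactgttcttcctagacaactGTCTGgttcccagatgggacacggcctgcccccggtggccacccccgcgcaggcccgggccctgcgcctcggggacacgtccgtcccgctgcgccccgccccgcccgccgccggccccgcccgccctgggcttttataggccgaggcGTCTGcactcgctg
The letters began 161 and 14 bases before the start. RefSeq windows were matched for 8 of the 10 genes, and 4 of these 8 held CAGAC on either strand, as did 42.2% of all 32851 windows of this length. At least 2 copies, as in *Fstl3* and *Tgfb2*, were found in 11.7% of all windows. A match of 5 letters describes the sequence and does not show that a SMAD binds there.

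Library totals ran from 63235040 to 82824942 counted reads. Levels of a gene are given as CPM, its counts scaled by TMM to a common library size over all 18 libraries, and levels between genes are compared as the authors' FPKM, which accounts for transcript length. The 8 neuronal markers were detected in every library, as were the 4 satellite glial markers, and the neuronal markers summed to 3233 to 3519 FPKM in sham, 3566 to 3718 with fracture and 3463 to 3826 with fracture plus PDX. All 6 genes of a placental list (*Prl3b1*, *Prl2c2*, *Psg21*, *Tpbpa*, *Prl8a8*, *Psg23*) were also detected in every library, of males and females alike. Their summed FPKM was 89.8 to 300.5 (median 195) in sham, 14.5 to 138.3 (median 51.0) with fracture and 14.8 to 71.8 (median 41.2) with fracture plus PDX, so the sham and PDX libraries did not overlap in it. These genes are known from the placenta and not from ganglia, and the source of their RNA, in the tissue or outside it, could not be tested with these files. This bears on every difference from sham of a gene that follows them, *Fstl3* among them. The 4 endothelial markers summed to 20.1 to 28.2 FPKM (median 26.4) in sham, 17.0 to 25.0 (median 21.2) with fracture and 17.8 to 22.4 (median 20.3) with fracture plus PDX. The 5 fibroblast markers summed to 205 to 270 in sham, 185 to 222 with fracture and 166 to 238 with fracture plus PDX, and those of skeletal muscle ranged from 4.54 to 380 over the 18 libraries without separating the groups. In bulk tissue, fewer cells of a type and less RNA per cell cannot be told apart.

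*Fstl3* was lower in all 12 mice with a fracture than in every sham mouse. In sham, its level was 21.2, 20.2 and 24.2 CPM in the males and 19.4, 22.2 and 17.99 CPM in the females. With fracture it was 15.02, 15.4 and 11.6 CPM in the males and 15.3, 13.5 and 17.1 CPM in the females. With fracture plus PDX it was 13.3, 12.9 and 12.2 CPM in the males and 12.3, 13.2 and 11.98 CPM in the females. The highest fracture mouse (17.1 CPM) lay just below the lowest sham mouse (17.99 CPM), whereas the highest PDX mouse (13.3 CPM) lay well below it, and the fracture and PDX groups overlapped. Group means were 20.9 ± 2.17, 14.7 ± 1.88 and 12.6 ± 0.544 CPM (SD, n = 6 each). The edgeR difference with fracture plus PDX from sham was −0.72 on the log2 scale (SE 0.065), a level 39.1% lower. It was −0.51 (SE 0.093) for fracture from sham and −0.21 (SE 0.081) for fracture plus PDX from fracture, and these 3 differences share their libraries. Groups did not overlap for 2.57% of the genes tested between fracture and sham, 2.86% between fracture plus PDX and sham, and 0.267% between fracture plus PDX and fracture.

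**Figure D1:**
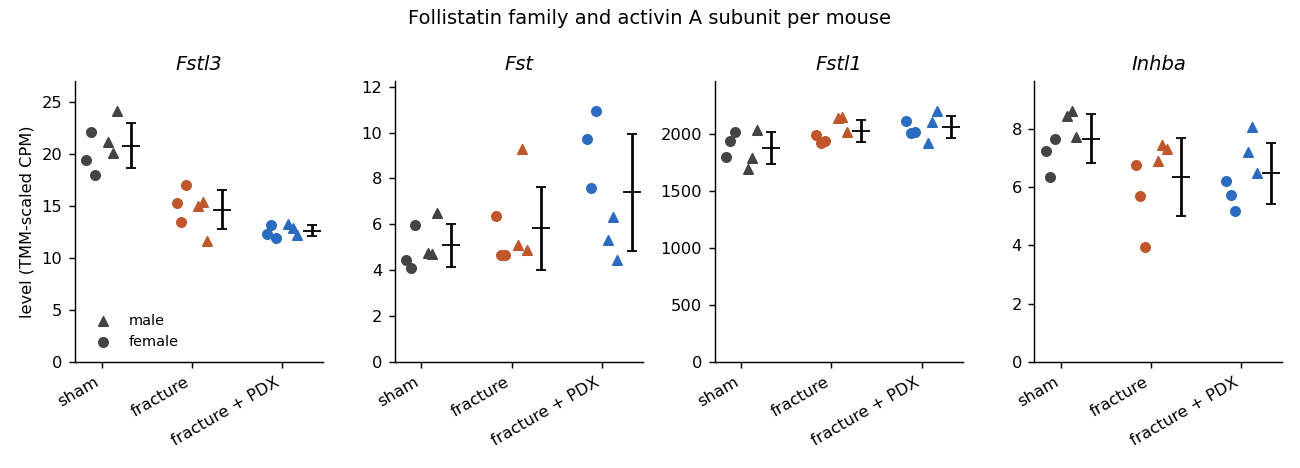
Level (TMM-scaled CPM, linear axis from 0) of *Fstl3*, *Fst*, *Fstl1* and *Inhba* in each mouse of the 3 groups, with females as circles and males as triangles. The black bar beside each group is the mean and the error bar 1 SD (n = 6), and the mean of *Fstl3* is 20.9 CPM in sham and 14.7 and 12.6 CPM in the fracture groups, with no fracture or PDX mouse as high as a sham mouse.

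By p-value, *Fstl3* ranked 2 of the 20574 genes tested between fracture plus PDX and sham, which is how it was chosen. The genes next to it were *mt-Rnr1*, a mitochondrial ribosomal RNA, at rank 1 with a difference of −0.63 on the log2 scale, and *Fblim1* (−0.93), *Nup62cl* (−2.08), *Gm41442* (0.88), *Serpinh1* (−0.42) and *mt-Rnr2* (−0.68) at ranks 3 to 7.

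As no PDX mouse reached a sham mouse in *Fstl3*, the same held within each sex. In males, sham ranged from 20.2 to 24.2 CPM and fracture plus PDX from 12.2 to 13.3 CPM. In females, sham ranged from 17.99 to 22.2 CPM and fracture plus PDX from 11.98 to 13.2 CPM. A test of sex, which played no part in the choice of the gene, gave a male minus female difference of 0.01 on the log2 scale (SE 0.067, adjusted p = 0.977, edgeR quasi-likelihood test over all 18 libraries with group in the model). Of all genes, 0.291% were called between males and females.

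*Fstl3* moved with the placental genes from library to library, within groups as well as between them, with a within-group r of log2 levels of 0.74 in sham, 0.95 with fracture and 0.67 with fracture plus PDX (6 libraries each, a description). The sham mouse with the lowest *Fstl3* (female 3, 6.63 FPKM) also had the lowest placental sum of its group, 89.8 FPKM. The fracture mouse with the highest *Fstl3* (female 3, 6.34 FPKM) had the highest placental sum of its group, 138.3 FPKM, and the one with the lowest (male 3, 4.22 FPKM) had the lowest, 14.5 FPKM. The extremes did not always coincide. The highest *Fstl3* in sham (male 3, 8.86 FPKM) came with a placental sum of 202 FPKM, below the 300.5 of female 2, and the lowest placental sum with fracture plus PDX (female 1, 14.8 FPKM) did not come with the lowest *Fstl3* of that group. When the mean log2 level of the 6 placental genes was added to the model, a choice made after seeing the data, the *Fstl3* difference from sham went from −0.51 to −0.19 (SE 0.087) with fracture and from −0.72 to −0.55 (SE 0.13) with fracture plus PDX. Between fracture plus PDX and fracture it was −0.17 (SE 0.058) with that term, close to the −0.21 without it. As this term differed between sham and the other groups, the part of the placental genes in the *Fstl3* difference cannot be told apart from that of the fracture.

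**Figure D2:**
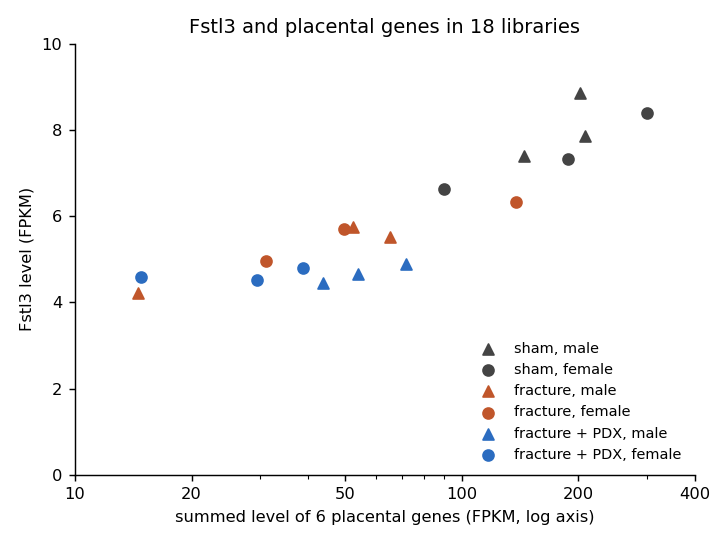
*Fstl3* level (FPKM, linear axis from 0) against the summed level of 6 placental genes (FPKM, log axis) in the 18 libraries, colored by group, with circles for females and triangles for males. The fracture library with the highest placental sum (138.3 FPKM) lies between 2 sham libraries, with placental sums of 89.8 and 144 FPKM, and its *Fstl3* level of 6.34 FPKM is below theirs, 6.63 and 7.40 FPKM. The SD of *Fstl3* is 0.735 FPKM with fracture and 0.801 FPKM in sham. From these libraries the part of the placental genes cannot be told apart from that of the fracture.

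The genes whose log2 CPM was most like that of *Fstl3* over the 18 libraries were *Ada* (Pearson r = 0.95), *Nup62cl* (0.93), *Mfge8* (0.93), *Krt8* (0.93) and *Serpinb9f* (0.93), among 15799 genes with a mean of at least 1 CPM. *Ada* encodes adenosine deaminase, *Mfge8* a bridging protein of phagocytosis and *Krt8* a keratin of simple epithelia. After the group means were subtracted, the 5 most alike were *Taf7l* (0.84), *Prl7b1* (0.84), *Ctsq* (0.83), *Ctsm* (0.82) and *Ada* (0.81), of which *Prl7b1*, a prolactin family gene, and the cathepsins *Ctsq* and *Ctsm* are known from the placenta. By rank correlation of the deviations, the 5 were *Pcdhb3*, *Ndufb6*, *Ctsq*, *Eva1a* and *Taf7l*, of which *Ctsq* was also in this group of 3. For the levels, rank correlation gave *Ada*, *Prl7b1*, *Cts3*, *Nup62cl* and *Psg29*. Of these, *Prl7b1* was in the same group of 3, and *Cts3* and *Psg29* share family names with the placental genes *Ctsq* and *Psg21*. *Ada* had 7.32 to 17.0 CPM in sham, 4.36 to 9.03 CPM with fracture and 4.92 to 6.90 CPM with fracture plus PDX. Of the other 9 signaling genes, *Tgfb3* came nearest by its levels, at place 760 (r = 0.61), but not by deviations from the group means, where it stood at place 11769 (r = −0.17) and *Tgfb1* at place 5157 (r = 0.13). These libraries share their groups, and the coefficients describe likeness of pattern in whole tissue.

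The overlapping gene *Prss57*, which encodes a neutrophil protease, shares 1157 exon bases with *Fstl3* on the opposite strand. It had at most 99 counts in a library, against 763 to 1857 for *Fstl3*. *Acvr2a* shares 446 exon bases with *Orc4*, which had 2061 to 2988 counts against 2032 to 3160 for *Acvr2a*. The library kit keeps the strand, but whether the counting used it is not stated, so the values of *Acvr2a* may hold reads of *Orc4*.

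Set side by side per length, *Fstl1* was by far the highest of the 10 genes, and both activin subunits, *Tgfb1*, *Tgfb2* and *Fst* were the lowest. In sham, *Fstl1* had 348 ± 24.6 FPKM (SD, n = 6), *Tgfb3* 9.63 ± 0.501, *Fstl3* 7.75 ± 0.801, *Tgfbr2* 6.38 ± 0.596 and *Acvr2a* 5.58 ± 0.375 FPKM. *Inhbb* had 3.13 ± 0.307 FPKM, *Tgfb1* 1.70 ± 0.156, *Tgfb2* 1.20 ± 0.069, *Inhba* 1.09 ± 0.108 and *Fst* 0.998 ± 0.172 FPKM. The ranges of neighbors in this order overlapped from *Tgfb3* to *Acvr2a* and from *Tgfb2* to *Fst* and were apart elsewhere, though *Tgfb3* was above *Fstl3* in each of the 6 sham libraries. *Fstl3* stood at place 3 in sham and at place 5 in both fracture groups. With fracture plus PDX its highest library (4.90 FPKM) was below the lowest of *Acvr2a* (4.93 FPKM) and of *Tgfbr2* (5.01 FPKM), whereas in sham its lowest library (6.63 FPKM) was above the highest of *Acvr2a* (5.99 FPKM).

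**Figure D3:**
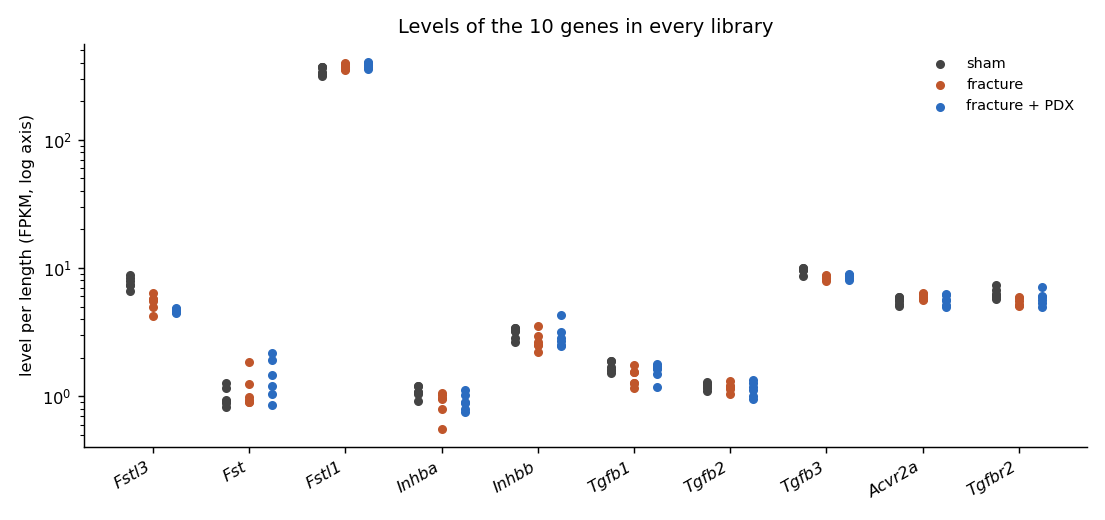
Level per length (FPKM, log axis) of the 10 genes in each of the 18 libraries, with 1 point per library and the groups side by side. *Fstl1* lies at or above 313.8 FPKM in every library, and the other 9 genes lie between 0.56 and 9.99 FPKM.

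Of the 9 genes other than *Fstl3*, 1 had an adjusted p-value under 0.05 between fracture and sham, 0 between fracture plus PDX and sham, and 0 between fracture plus PDX and fracture (edgeR quasi-likelihood test, adjusted over all genes). The shares of all genes called in these comparisons were 2.92%, 4.5% and 0%. Before adjustment, 5, 4 and 0 of the 9 genes had a p-value under 0.05, as did 3817 of all 20659, 3695 of 20574 and 1113 of 20562 genes tested. DESeq2 called 2, 1 and 0 of them, and 1506, 1627 and 10 of all genes.

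**Figure D4:**
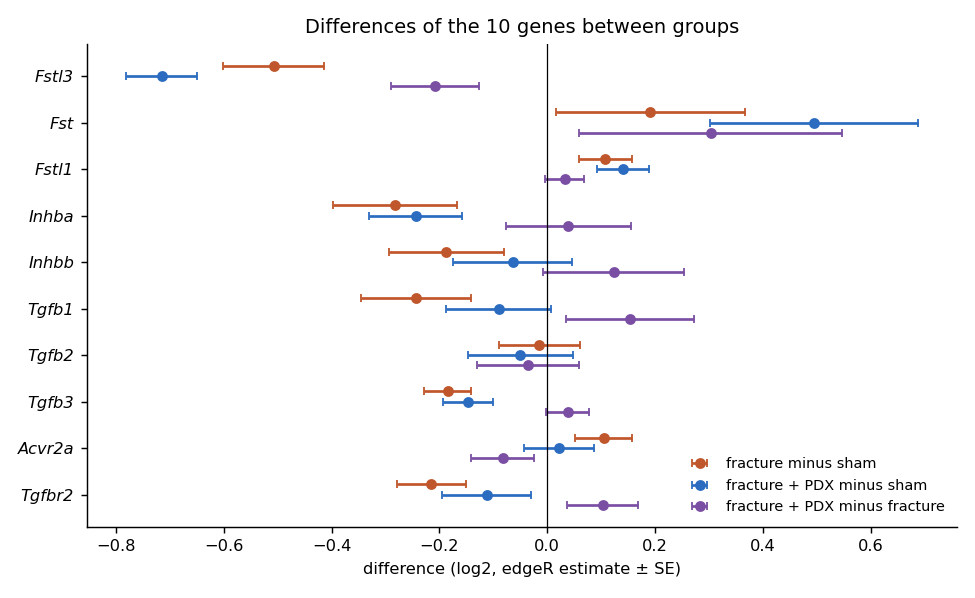
Difference of each of the 10 genes on the log2 scale (edgeR estimate, error bars 1 SE) for fracture minus sham, fracture plus PDX minus sham, and fracture plus PDX minus fracture, 6 mice in each group. *Fstl3* lies lowest in both comparisons with sham, at −0.51 and −0.72, while *Fst* lies at 0.19 and 0.49.

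Among the antagonists, follistatin, encoded by *Fst*, had a difference opposite in sign to that of *Fstl3*, and it did not pass the test. *Fst* ranged from 4.09 to 6.51 CPM (median 4.74) in sham, from 4.65 to 9.30 CPM (median 4.996) with fracture and from 4.44 to 10.9 CPM (median 6.95) with fracture plus PDX, so all groups overlapped. The difference from sham was 0.49 (SE 0.19, adjusted p = 0.190, edgeR) with fracture plus PDX and 0.19 (SE 0.18, adjusted p = 0.628, edgeR) with fracture. With the placental term in the model the first of these was −0.16 (SE 0.34), the same sign as *Fstl3*. The high PDX values were those of the females, at 9.74, 7.60 and 10.9 CPM, while the PDX males had 5.34, 6.31 and 4.44 CPM. Each PDX female lay above all 6 sham mice, and no PDX male did. The interaction of sex with fracture plus PDX against sham was −0.96 (SE 0.28, male minus female) with an unadjusted p-value of 0.00542 and an adjusted p-value of 0.614 in edgeR, so a sex difference was not shown over all genes. Of all genes, 0.00486% were called in this interaction.

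*Fstl1*, which shares the follistatin name and domain but is not a strong binder of activin, ranged from 1695 to 2034 CPM (median 1872) in sham, from 1920 to 2150 CPM (median 2003) with fracture and from 1922 to 2203 CPM (median 2064) with fracture plus PDX. Its differences from sham of 0.11 (SE 0.049, adjusted p = 0.257, edgeR) and 0.14 (SE 0.049, adjusted p = 0.136) did not pass the test, and the groups overlapped. *Fstl4* and *Fstl5*, further genes of this name, differed from sham by −0.03 (SE 0.20) and 0.13 (SE 0.082) with fracture and by 0.11 (SE 0.21) and 0.03 (SE 0.061) with fracture plus PDX.

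Of the activin subunits, *Inhba*, which forms activin A, ranged from 6.36 to 8.61 CPM (median 7.68) in sham, from 3.96 to 7.46 CPM (median 6.84) with fracture and from 5.18 to 8.06 CPM (median 6.34) with fracture plus PDX. Its differences from sham were −0.28 (SE 0.12, adjusted p = 0.206, edgeR) and −0.24 (SE 0.086, adjusted p = 0.144), and the groups overlapped. With the placental term in the model these differences were −0.58 and −0.36. *Inhba* was the gene of the 10 with the largest sex difference. The 9 males ranged from 6.47 to 8.61 CPM and the 9 females from 3.96 to 7.65 CPM, a male minus female difference of 0.32 (SE 0.086, adjusted p = 0.135, edgeR). DESeq2 gave this difference an adjusted p-value of 0.0250.

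*Inhbb*, which forms activin B, ranged from 12.4 to 16.2 CPM (median 15.1) in sham, from 10.6 to 16.6 CPM (median 12.2) with fracture and from 11.8 to 19.8 CPM (median 13.2) with fracture plus PDX. The differences from sham were −0.19 (SE 0.11, adjusted p = 0.383, edgeR) and −0.06 (SE 0.11, adjusted p = 0.829), and the second was −0.17 without PDX female 3 and −0.42 with the placental term. *Inhbb* and *Fst* were highest in the same library of each fracture group, male 2 with fracture (16.6 and 9.30 CPM) and female 3 with fracture plus PDX (19.8 and 10.9 CPM). *Inha*, whose product turns the beta subunits into the antagonist inhibin, differed from sham by 0.26 (SE 0.11, adjusted p = 0.221, edgeR) and 0.15 (SE 0.11, adjusted p = 0.550).

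Among the TGF-β ligands, *Tgfb3* was the one called by edgeR. It was lower with fracture, at 29.5 to 33.0 CPM (median 31.5), than in sham, at 32.2 to 37.6 CPM (median 36.2), a difference of −0.18 (SE 0.043, adjusted p = 0.0378, edgeR). In this comparison 1.83% of all genes were called lower and 1.09% higher. Sham male 1, at 32.2 CPM, was the sham mouse within the range of the fracture mice, and 4 of the 6 fracture mice lay below it. The call was lost when any of 10 of the 12 libraries was left out, with adjusted p-values from 0.0538 to 0.0898, and was kept without sham male 1 or fracture female 1. With fracture plus PDX, *Tgfb3* ranged from 30.4 to 34.2 CPM (median 32.5) and differed from sham by −0.15 (SE 0.046, adjusted p = 0.0978, edgeR). Without sham male 1 this adjusted p-value was 0.0329. With the placental term the difference with fracture was −0.24 (SE 0.065, adjusted p = 0.471, edgeR), so its size did not shrink while its error grew. Of all genes, 1580 had an unadjusted p-value under 0.05 with that term and 3817 without it, which also bears on the adjusted p-value. The deviations of *Tgfb3* from the group means followed the mean of the fibroblast markers with r = 0.53 over the 18 libraries, and the sum of these markers had a median of 242 FPKM in sham and 195 with fracture. The part of fibroblasts in the *Tgfb3* difference was not tested.

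*Tgfb1*, the ligand most studied in immune regulation and scarring, ranged from 8.54 to 10.5 CPM (median 9.13) in sham, from 6.57 to 9.63 CPM (median 7.86) with fracture and from 6.70 to 9.96 CPM (median 9.19) with fracture plus PDX. It differed from sham by −0.24 (SE 0.10, adjusted p = 0.223, edgeR) and −0.09 (SE 0.098, adjusted p = 0.699), and the second lay between −0.15 without PDX male 1 and −0.019 without PDX male 2. Deviations of *Tgfb1* from the group means followed the red blood cell (r = 0.60) and neutrophil markers (0.57). These summed to medians of 1693 and 155 FPKM in sham, 1074 and 86.5 with fracture, and 1161 and 175 with fracture plus PDX. PDX male 1 had the highest of both sums in its group (2928 and 388 FPKM) and PDX male 2 the lowest (508 and 68.1 FPKM). What part blood cells had in the *Tgfb1* differences was not tested. *Tgfb2* ranged from 6.03 to 8.51 CPM over all 18 mice, with medians of 7.69, 7.64 and 7.47 CPM in sham, fracture and fracture plus PDX. Its differences from sham were −0.01 (SE 0.075) and −0.05 (SE 0.098), the smallest of the 3 TGF-β ligands in both comparisons.

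Of the type II receptors, *Tgfbr2* ranged from 51.2 to 67.4 CPM (median 56.2) in sham, from 46.0 to 53.7 CPM (median 49.3) with fracture and from 45.3 to 62.6 CPM (median 52.9) with fracture plus PDX. The groups overlapped, and its differences from sham were −0.21 (SE 0.064, adjusted p = 0.0892, edgeR) and −0.11 (SE 0.083, adjusted p = 0.539). DESeq2 called the first of these (adjusted p = 0.0289). With 1 library left out, the second lay between −0.17 without PDX female 3 and −0.060 without PDX male 1. It was −0.41 with the placental term in the model. The deviations of *Tgfbr2* from the group means followed the means of the fibroblast (r = 0.72), satellite glial (0.64) and Schwann cell markers (0.57), and the part of these cells in its differences was not tested. *Acvr2a*, an activin receptor, ranged from 30.8 to 40.4 CPM over all mice and differed from sham by 0.10 (SE 0.053, adjusted p = 0.322, edgeR) and 0.02 (SE 0.065, adjusted p = 0.914). *Acvr2b*, the other activin type II receptor, differed by −0.22 (SE 0.19) and −0.42 (SE 0.16, adjusted p = 0.175, edgeR). The activin type I receptor *Acvr1b* differed by 0.02 (SE 0.041) and 0.01 (SE 0.044).

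The wider pathway was described with 7 lists of 100 genes in all, of which 92 genes besides *Fstl3* were tested. The lists were chosen with earlier results of these data known, so the shares below are a description. They include the fibroblast markers *Dcn* and *Col1a1*. Of the listed genes, *Inhbc*, *Inhbe*, *Nodal*, *Gdf3*, *Lefty2* and *Tdgf1* had at most 13 counts in a library and were not tested, nor was *Cfc1*. With fracture, 7 of the 92 genes were called lower than in sham and 0 higher, or 7.61%, where 1.83% of all genes were called lower and 1.09% higher. The median difference of the 92 genes was −0.11, against 0.00 for all genes, and 73.9% of them lay below 0, against 49.3% of all genes. The neuronal marker sums of all fracture libraries lay above those of all sham libraries, and the fibroblast sum had a median of 195 FPKM against 242 in sham. The part of these cell types in the shift of the 92 genes was not tested. With fracture plus PDX, 5 were called lower and 1 higher, or 6.52%, with a median of −0.10 against 0.00 and 70.7% below 0 against 50.4%. Of all genes, 2.32% were called lower and 2.17% higher in that comparison. Between fracture plus PDX and fracture, 0 of the 92 were called by edgeR or by DESeq2, and their median was 0.00. With the placental term in the model, 0 of the 92 were called in either comparison with sham, and of all genes 1 was called with fracture and 0 with fracture plus PDX.

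**Figure D5:**
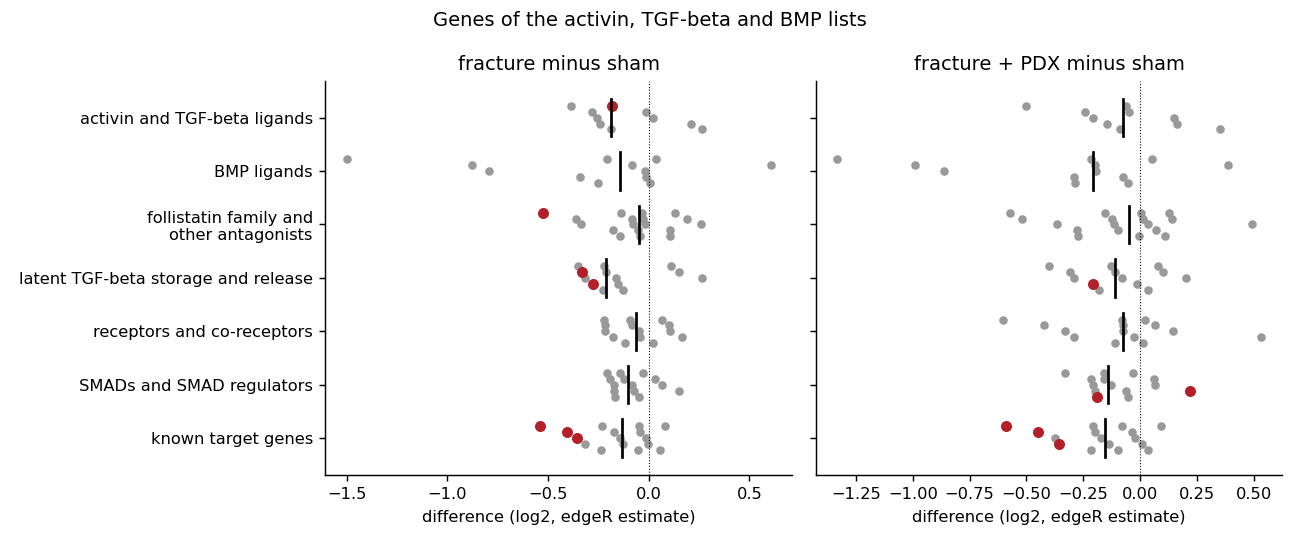
Difference on the log2 scale (edgeR estimate) of each tested gene other than *Fstl3* in the 7 lists, for fracture minus sham and for fracture plus PDX minus sham, with the median of a list as a black line, genes with an adjusted p-value under 0.05 in red and the others in grey. The medians of all 7 lists lie below 0 in both comparisons, between −0.21 and −0.05.

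Besides *Fstl3*, the called gene with the largest difference in each comparison with sham was a known target, *Fn1*. This gene, which encodes the matrix protein fibronectin, had 192 to 276 CPM (median 241) in sham, 143 to 183 CPM (median 173) with fracture and 139 to 188 CPM (median 157) with fracture plus PDX, so neither fracture group overlapped with sham. It fell by 0.54 (SE 0.091, adjusted p = 0.0149, edgeR) and by 0.59 (SE 0.087, adjusted p = 0.00454) on the log2 scale. Its deviations from the group means followed the mean of the placental genes with r = 0.63 over the 18 libraries, a description beside r = 0.80 for *Fstl3*. They followed the mean of the endothelial markers with r = 0.54, against 0.42 for *Fstl3*, and that of the neuronal markers with r = −0.65, against −0.25 for *Fstl3*. The part of these cells in both differences was not tested. *Tgfbi*, a matrix protein named for its induction by TGF-β, fell by 0.36 with fracture (SE 0.069, adjusted p = 0.0185, edgeR) and differed by −0.37 with fracture plus PDX (SE 0.13, adjusted p = 0.143). Its deviations followed the mean of the 5 macrophage markers with r = 0.70, and these summed to 20.9 to 28.4 FPKM (median 23.1) in sham and 16.6 to 23.4 (median 19.1) with fracture, a part that was not tested. *Ccn2*, connective tissue growth factor, differed by −0.32 with fracture (SE 0.081, adjusted p = 0.0571, edgeR) and fell by 0.36 with fracture plus PDX (SE 0.086, adjusted p = 0.0379), a call that was kept only without sham female 1, PDX male 3 or PDX female 3 when 1 library was left out. Its deviations followed the Schwann cell (r = 0.48), adipocyte (0.47), smooth muscle and pericyte (0.45) and fibroblast markers (0.43). They ran against the neuronal markers (−0.43), and the part of these cells was not tested. Of the 16 genes in this list, 3 were called lower in each comparison with sham, beside 1.83% and 2.32% of all genes, and the BMP targets *Id1*, *Id2* and *Id3* differed from sham by −0.08 to 0.09.

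In the list for storage and release of latent TGF-β, 2 of 13 genes were called lower with fracture and 1 with fracture plus PDX, beside 1.83% and 2.32% of all genes. *Fbn1*, which encodes the fibrillin-1 of microfibrils, fell by 0.28 with fracture (SE 0.045, adjusted p = 0.0111, edgeR) and differed by −0.18 with fracture plus PDX (SE 0.069, adjusted p = 0.172). *Dcn*, the small proteoglycan decorin, fell by 0.33 with fracture (SE 0.073, adjusted p = 0.0331, edgeR) and differed by −0.40 with fracture plus PDX (SE 0.10, adjusted p = 0.0514). The deviations of *Fbn1* and *Dcn* from the group means followed the mean log2 level of the 5 fibroblast markers, with r = 0.71 and 0.90 over the 18 libraries, and *Dcn* is itself one of these markers. The part of fibroblasts in both differences was not tested. The call of *Dcn* was kept only without sham male 1, sham female 1 or fracture female 1 when 1 library was left out. *Thbs1*, thrombospondin-1, an activator of latent TGF-β, differed by −0.22 with fracture (SE 0.069, adjusted p = 0.102, edgeR) and fell by 0.21 with fracture plus PDX (SE 0.046, adjusted p = 0.0233), a call lost without sham male 3, PDX male 1 or PDX male 2.

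Of the 18 tested antagonists besides *Fstl3*, the BMP antagonist *Chrdl1* fell with fracture, from 19.7 to 27.8 CPM (median 22.5) in sham to 13.6 to 17.3 CPM (median 16.7). The difference was −0.52 (SE 0.093, adjusted p = 0.0140, edgeR), and it was −0.52 (SE 0.14, adjusted p = 0.0611) with fracture plus PDX, where 12.4 to 20.7 CPM overlapped with sham. The deviations of *Chrdl1* followed the mean of the satellite glial markers with r = 0.65 and that of the fibroblast markers with r = 0.48. The satellite glial sum was higher with fracture (median 216 FPKM) than in sham (205), and the fibroblast sum lower, and their part in the *Chrdl1* difference was not tested. Of 12 BMP ligands and 14 receptors or co-receptors, 0 were called by edgeR with the settings used throughout, beside 2.92% and 4.5% of all genes in the comparisons with sham, and some were called with other settings. DESeq2, which called 1506 and 1627 of all genes there, called *Tgfbr2* with fracture, and *Bmp7* and the receptor gene *Acvrl1* with fracture plus PDX. The edgeR differences with fracture plus PDX were −0.28 for *Bmp7* (SE 0.079, adjusted p = 0.0600) and −0.29 for *Acvrl1* (SE 0.079, adjusted p = 0.0532). In edgeR, *Bmp7* was called without sham female 1, and *Acvrl1* without sham female 3 or PDX female 2, with at least 10 counts required in every library, without sex in the model, or with all 18 libraries in one fit.

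Among 14 SMADs and their regulators, 0 were called with fracture, and 1 was higher and 1 lower with fracture plus PDX, beside 2.92% of all genes with fracture and 2.17% higher and 2.32% lower with fracture plus PDX. *Smad1*, which carries BMP signals, rose from 37.2 to 40.4 CPM (median 39.5) in sham to 42.5 to 50.7 CPM (median 45.1) with fracture plus PDX, a difference of 0.22 (SE 0.046, adjusted p = 0.0164, edgeR). *Smurf1*, a ubiquitin ligase that targets SMADs, fell from 52.2 to 60.8 CPM (median 54.6) in sham to 46.9 to 51.5 CPM (median 47.8), a difference of −0.19 (SE 0.040, adjusted p = 0.0163, edgeR). For both genes the PDX mice did not overlap with sham, as for 2.86% of all genes. The deviations of *Smurf1* followed the mean of the 5 Schwann cell markers with r = 0.72, and these summed to 3253 to 7577 FPKM (median 5456) in sham and 4707 to 5251 (median 4897) with fracture plus PDX, which overlap. Those of *Smad1* ran against the Schwann cell markers (r = −0.46) and the neutrophil markers (r = −0.40). The part of these cells in both differences was not tested. With fracture both genes differed from sham in the same directions, *Smad1* by 0.15 (SE 0.041, adjusted p = 0.0660, edgeR) and *Smurf1* by −0.12 (SE 0.046, adjusted p = 0.170), and DESeq2 called *Smad1* and *Smad5* in that comparison. Between fracture plus PDX and fracture the differences were 0.07 (SE 0.041) and −0.07 (SE 0.037), with an adjusted p-value of 0.917 for each in edgeR, so a difference between the fracture groups was not shown. *Smad2*, *Smad3* and *Smad4*, which carry activin and TGF-β signals, differed from sham by −0.03 (SE 0.032), −0.17 (SE 0.10) and −0.08 (SE 0.050) with fracture and by 0.06 (SE 0.038), −0.16 (SE 0.098) and −0.05 (SE 0.039) with fracture plus PDX, with adjusted p-values from 0.417 to 0.714 in edgeR.

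Between fracture plus PDX and fracture, the differences of the 9 genes besides *Fstl3* lay between −0.08 for *Acvr2a* (SE 0.059) and 0.30 for *Fst* (SE 0.24), and their adjusted p-values in edgeR were between 0.918 and 0.995. *Fst* ranged from 4.65 to 9.30 CPM with fracture and from 4.44 to 10.9 CPM with fracture plus PDX, which overlap, and its difference was 0.52 without fracture male 2.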

How the data were processed

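RNA-seq was performed on L3–L5 DRG of 18 CD1 mice, 6 per group. Per the labels, libraries were poly(A)-selected and strand-specific, reads were trimmed with cutadapt 1.10, and HISAT2, StringTie and mm10 are named in the submitters' processing notes. The authors deposited raw counts per gene and FPKM values, which they scaled by transcript length and mapped fragments. Columns marked Con were read as sham, since their sex and number match the sham titles, and no column was left unused. The deposited counts (63235040 to 82824942 per library) limit precision through counting error and the spread between mice.

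Differences were fitted with edgeR 4.0.16 in R 4.3.3 (filterByExpr with a minimum count of 10, TMM, robust quasi-likelihood test) with sex and group in the model, fitted to the 12 libraries of a comparison. All 18 libraries with group in the model gave the sex difference. Benjamini-Hochberg adjusted p-values were computed over every gene tested, with a threshold of 0.05. Log2 CPM for likeness used a prior count of 2. A symbol with several identifiers was read from the identifier with the highest counts. The fits were tested on simulated data.

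The members and lists were chosen with earlier results of these data known. Named genes were the 10 members, pathway genes called in any comparison, partners of activin signaling, the 5 genes most like *Fstl3* and its 5 neighbors in rank on either side. Alternatives were DESeq2 1.42.0, upper-quartile scaling, other filters, a model without sex, a block for mice sharing sex and number, a single fit of the 18 libraries, limma 3.58.1 on log2(FPKM + 1) and log2(FPKM + 0.1), and leaving out each library. The placental covariate was added after seeing the data. Protein sequences were not used here. Of the pathway lists, 1 gene is not reported here, though counts over the lists include it.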

Additional observations from a re-analysis of the deposited data

Results flagged for a closer look

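In 30 groups of 6 mice (10 genes in 3 groups), 2 values stood apart from the other 5 by Dixon's criterion at 95%, which chance meets in about 1 of 20 groups. *Fst* was 9.30 CPM in male 2 with fracture, where the next mouse had 6.35 CPM and the gap took 0.633 of the range. Without this mouse the *Fst* difference of fracture from sham was 0.019 in place of 0.19. *Inhbb* was 19.8 CPM in female 3 with fracture plus PDX, where the next mouse had 14.7 CPM and the gap took 0.634 of the range. Without this mouse the *Inhbb* difference of fracture plus PDX from sham was −0.17 in place of −0.06. This library also had the highest *Fst* (10.9 CPM) and the highest *Tgfbr2* (62.6 CPM) of its group, and the highest sums of adipocyte (11.5 FPKM, next 2.39), skeletal muscle (192, next 48.0), satellite glial (262, next 232) and fibroblast markers (238, next 210). The part of these cells in its values was not tested.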

How the results depend on the processing

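*Fstl3* was lower than sham under all 22 alternatives in both comparisons. Leaving out a library could not reverse this sign, since every fracture and PDX mouse lay below every sham mouse. The differences ran from −0.75 to −0.55 with fracture plus PDX and from −0.56 to −0.19 with fracture. The weakest value of each came with the placental covariate. That covariate left 1 gene called of 603 with fracture and 0 of 925 with fracture plus PDX. It left 0 in place of 7 and of 6 pathway genes and 0 in place of 1 of the 9 signaling genes. The difference of that gene, *Tgfb3*, was −0.24 in place of −0.18. With fracture plus PDX the covariate turned *Fst* to −0.16 and *Acvr2a* to −0.15. In the same comparison *Inhbb* went from −0.06 to −0.42 and *Tgfbr2* from −0.11 to −0.41. *Inhba* went from −0.28 to −0.58 with fracture and from −0.24 to −0.36 with fracture plus PDX. The covariate differs between sham and the fracture groups, so the parts of the covariate and of the fracture cannot be told apart. DESeq2 called 1506, 1627 and 10 genes in the comparisons with sham and with fracture, 16 and 15 pathway genes, 2 and 1 of the 9 signaling genes, 327 genes, 6 pathway genes and 1 signaling gene between sexes, and 58, 59 and 8 genes in the interactions, where edgeR called 62 between sexes and 0, 1 and 1 in the interactions. The cause of this difference between tools was not tested. Without the filter 0 signaling genes were called with fracture. With all 18 libraries in one fit 1 signaling gene was called with fracture plus PDX. With a block for mice that share sex and number, 118 genes, 2 pathway genes and 0 signaling genes were called with fracture and 486 genes with fracture plus PDX. Of 6 pairs of the same sex and number, 1, 1 and 3 had deviations correlated above 0.1 (range −0.14 to 0.26). Pairs of different numbers were not compared with these, so whether the numbers pair the mice was not settled. By rank correlation, 2 of the 5 genes most like *Fstl3* were the same, both for levels and for deviations.

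Leaving out 1 library gave 213 to 710 genes, 4 to 11 pathway genes and 0 to 1 signaling genes with fracture, 498 to 1008, 4 to 11 and 0 to 1 with fracture plus PDX, 0 to 1 genes between the fracture groups and 24 to 86 between sexes. The lowest and highest counts of all genes came without fracture female 2 and sham male 1 for fracture, and without PDX female 1 and sham male 1 for fracture plus PDX. The 11 pathway genes with fracture plus PDX were called without PDX female 3. *Fn1*, *Fbn1*, *Chrdl1* and *Tgfbi* with fracture and *Fn1*, *Smad1* and *Smurf1* with fracture plus PDX were among the genes called without any 1 of the 12 libraries. Signs of values near 0 changed for *Tgfb2* (−0.056 to 0.014 with fracture, −0.099 to 0.0060 with fracture plus PDX, −0.087 to 0.029 between fracture groups), *Acvr2a* (−0.016 to 0.055 with fracture plus PDX) and *Inhba* (−0.048 to 0.12 between fracture groups). For the sex difference, leaving out 1 library gave −0.017 to 0.058 for *Fstl3*, −0.047 to 0.048 for *Tgfb1* and −0.032 to 0.041 for *Tgfbr2*. That of *Fstl3* was −0.0033 and −0.0057 with limma, and that of *Tgfbr2* −0.011, −0.014 and, with upper-quartile scaling, −0.0037. The lowest count of any of the 10 genes in a library was 278, for *Fst*.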
